A study of Oryzias latipes with 84 samples.

Results

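The comparison concerns the pituitaries of young female medaka (Oryzias latipes). It sets 9 females of 53 to 59 days post-fertilization (dpf) against 8 females of 44 to 49 dpf, chosen by the sex and age in the sample labels, so that 17 of the 84 libraries of the series are used. Each library is bulk RNA-seq of a single pituitary, and each fish counts as 1 replicate. All fish of both groups are of the d-rR lhb:GFP strain, which carries a green fluorescent reporter under control of lhb sequence, and none was treated. The older group holds 5 fish of 53 dpf, 2 of 58 dpf and 2 of 59 dpf, and the younger group 1 of 44 dpf, 3 of 45 dpf, 1 of 47 dpf and 3 of 49 dpf. Per the labels, fish of the same egg collection date were raised together and later shared tanks with fish of their own age, so that age and rearing cohort cannot be told apart. Body length was 11 to 16 mm in the fish of 53 to 59 dpf (mean 13.33 ± 1.87 mm, SD, n = 9) and 11 to 15 mm in the fish of 44 to 49 dpf (mean 13.5 ± 1.34 mm, SD, n = 8). The lengths of the groups overlapped (difference -0.167 mm, two-sided exact permutation test, p = 0.883).

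In the teleost pituitary each peptide hormone comes mainly from a specialized endocrine cell type. The gonadotropins Fsh and Lh, which act on the gonad, and Tsh, which acts on the thyroid, each pair a β-subunit of their own (encoded by fshb, lhb and tshba) with a common α-subunit encoded by cga. In teleosts Fsh and Lh generally come from separate cells, and Fsh is known mainly for its role in the growth of ovarian follicles, whereas Lh is known for final maturation and ovulation. Prolactin (prl), growth hormone (gh), somatolactin (smtla) and the precursor of α-Msh and Acth (pomca) come from further cell types. Levels are given in CPM, the counts of a gene scaled by the total of its library, and fold changes come from edgeR after TMM scaling of the libraries, on the log2 scale, 53 to 59 over 44 to 49 dpf. In bulk tissue, more cells of a type and more RNA per cell cannot be told apart. The files and the reference table do not pair Ensembl identifiers with symbols, so that the genes described are 22 hormone, cell type and other genes of known identifier and the GFP cassette, together with a few genes known by identifier only.

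No gene passed the test between the age groups. Of 19409 genes tested, edgeR called 0 higher and 0 lower in the females of 53 to 59 dpf (0% called, adjusted p under 0.05), and the smallest adjusted p was 0.176. An unadjusted p under 0.05 was found for 689 genes (3.55% of those tested), 374 of them with a positive and 315 with a negative fold change. With DESeq2 as the test, run on 23823 genes without the filter on low counts, 2 genes were called higher and 3 lower. An unadjusted p under 0.05 was found there for 967 genes (4.06%). Of the genes that DESeq2 called, ENSORLG00000016450, ENSORLG00000013661 and ENSORLG00000022538 had 54.6, 40.6 and 27.9% of their summed CPM in a single fish. For ENSORLG00000022777 and ENSORLG00000028894 this share was 10.1 and 12.9%. The median log2 fold change over all genes was 0.0032. With body length in the model edgeR again called 0 genes (0%), with 657 (3.39%) at an unadjusted p under 0.05. The absence of calls held in all but 1 of the 17 fits that left out 1 fish. Without medaka29, a fish of 59 dpf, 2 genes were called lower, and the genes at an unadjusted p under 0.05 numbered 1620 of 19150 (8.46%). Without medaka9 (49 dpf) these were 1276 of 19654 (6.49%), and without medaka99 (53 dpf) 436 of 19306 (2.26%), with 0 called in both.

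Whole-library measures likewise overlapped between the groups. Total counts were 5112238 to 9070829 in the fish of 53 to 59 dpf and 2424546 to 7318447 in the fish of 44 to 49 dpf, where medaka94 was the shallowest library. The share of counts in the 8 hormone genes was 27.88 ± 3.88% in the older (SD, n = 9) and 26.92 ± 5.85% in the younger fish (SD, n = 8). Detected genes, counted with each library thinned to a total of 2424546, numbered 21751 ± 652 in the older (SD, n = 9) and 21973 ± 617 in the younger fish (SD, n = 8). RNA integrity numbers were 8.3 to 9.8 in the older and 8.7 to 10 in the younger fish (n = 7 each, 3 fish not determined). None of 7 such measures differed in two-sided exact permutation tests (p from 0.254 for total counts to 1 for the RNA integrity number, each adjusted p = 1). On the first principal component of the scaled log values, which held 28.9% of the variance, the older fish ranged from -69.5 to 66.4 and the younger fish from -54.2 to 48.3. The lowest value was that of medaka29, which had the largest TMM factor (1.313) and the most detected genes (22852) of the 17 fish. The highest was that of medaka98, which had the smallest TMM factor (0.8064) and the fewest detected genes (20914). The plot of hormone share, detected genes, globin share and length shows the overlap in single fish.

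**Figure D1:**
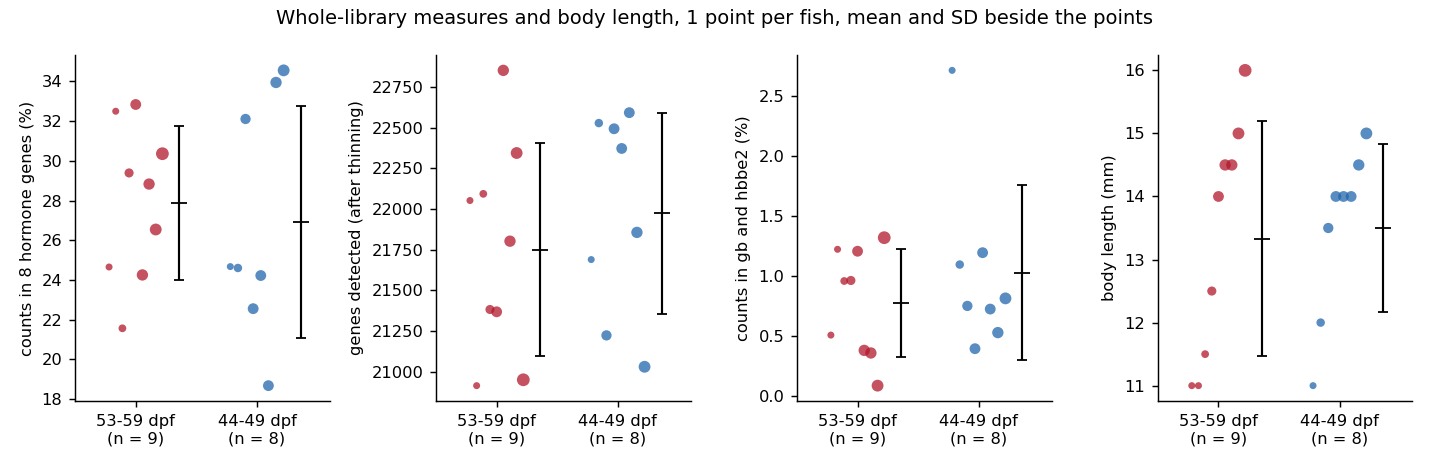
Share of counts in the 8 hormone genes (%), genes detected after thinning, share of counts in the globin genes gb and hbbe2 (%) and body length (mm), with 1 point per fish of 53-59 dpf (red) and 44-49 dpf (blue), larger points for longer fish, and the mean and SD as bars. The groups overlap in each panel, and a single fish of 44-49 dpf, medaka32, stands above the others in globin share with 2.71%.

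The 8 hormone genes, the defining markers of the labelled tissue, were detected in every library and took 18.7 to 34.6% of the counts of a fish. Of the 8, 0 were called higher and 0 lower between the age groups, with 5 positive and 3 negative fold changes and a median of 0.07 on the log2 scale, beside the median of 0.0032 over all genes. The widest fold range in the fish of 53 to 59 dpf was that of fshb (ENSORLG00000029237), the gene of the β-subunit of Fsh, with 18.1, whereas in the fish of 44 to 49 dpf lhb had the widest, 8.37 against 6.65 for fshb. The lowest, median and highest levels of fshb were 439, 5019 and 7930 CPM in the fish of 53 to 59 dpf, against 943, 2486 and 6274 CPM in the fish of 44 to 49 dpf. The older fish thus included both the highest and the lowest levels, and the groups overlapped. The log2 fold change was 0.74 (standard error 0.68, 95% interval -0.70 to 2.18, adjusted p = 0.996 in edgeR).

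The partner gene cga (ENSORLG00000022598) had 1372, 3164 and 3597 CPM as lowest, median and highest level in the fish of 53 to 59 dpf, against 1606, 2378 and 3593 CPM in the fish of 44 to 49 dpf. Its log2 fold change was 0.23 (standard error 0.25, 95% interval -0.28 to 0.74), and the groups overlapped over nearly the whole range. Levels of lhb (ENSORLG00000003553), which encodes the β-subunit of Lh, were lower in CPM than those of fshb in each of the 17 fish, although CPM does not correct for transcript length. They were 77.3, 255 and 726 CPM (lowest, median and highest) in the fish of 53 to 59 dpf, against 84.1, 256 and 704 CPM in the fish of 44 to 49 dpf. The medians of lhb nearly coincided, and its log2 fold change was -0.22 with a wide interval (standard error 0.54, 95% interval -1.37 to 0.94). The GFP cassette, driven by the promoter of lhb, had 706, 3436 and 8294 CPM in the fish of 53 to 59 dpf, against 764, 2495 and 5337 CPM in the fish of 44 to 49 dpf (log2 fold change 0.60, standard error 0.46, 95% interval -0.37 to 1.57). The reporter did not order the fish as lhb did. The 3 fish with the most lhb, medaka28 (726 CPM), medaka96 (704 CPM) and medaka9 (627 CPM), had 3436, 2006 and 2014 CPM of the GFP cassette, whereas medaka97 had 403 CPM of lhb and 8294 CPM of GFP. The thyrotropin gene tshba (ENSORLG00000029251) had 3134, 4263 and 8499 CPM in the fish of 53 to 59 dpf, against 2517, 4795 and 9004 CPM in the fish of 44 to 49 dpf. Its fold change between the ages was near 0 on the log2 scale (-0.08, standard error 0.27, 95% interval -0.63 to 0.47).

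Of the hormone genes that do not pair with cga, prl, pomca and gh were above the other hormone genes in CPM in each of the 17 fish. The level of smtla was below that of fshb or tshba in some fish. The age groups overlapped for each of these genes too. The prolactin gene prl (ENSORLG00000016928), which in fish is best known for ion balance in fresh water, was the most abundant hormone gene in CPM in each of the 17 fish. It had 86097, 143990 and 228329 CPM (lowest, median and highest) in the fish of 53 to 59 dpf, against 76602, 135358 and 213946 CPM in the fish of 44 to 49 dpf (log2 fold change 0.02, standard error 0.32, 95% interval -0.64 to 0.68). The gene pomca (ENSORLG00000025908) had 34275, 72380 and 113952 CPM in the older fish, against 33592, 59002 and 83182 CPM in the younger (log2 fold change 0.31, standard error 0.29, 95% interval -0.29 to 0.92). The 95% interval of pomca included 0. The growth hormone gene gh (ENSORLG00000019556) had the smallest fold range among the 8, with 32547 to 63381 CPM in the older fish and 33592 to 62224 CPM in the younger (log2 fold change 0.12, standard error 0.26, 95% interval -0.42 to 0.66). The somatolactin gene smtla (ENSORLG00000013460), a hormone gene particular to fish, had 3015 to 13858 CPM in the older fish and 3268 to 14495 CPM in the younger (log2 fold change -0.24, standard error 0.31, 95% interval -0.87 to 0.39). The adjusted p of these 8 genes and of the GFP cassette was 0.996 or more in edgeR. For 6 of the 8 hormone genes the 95% interval lay within a 2-fold change in either direction, the exceptions being fshb and lhb. These are intervals of single genes that treat the fish as independent, so they do not exclude such a change.

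**Figure D2:**
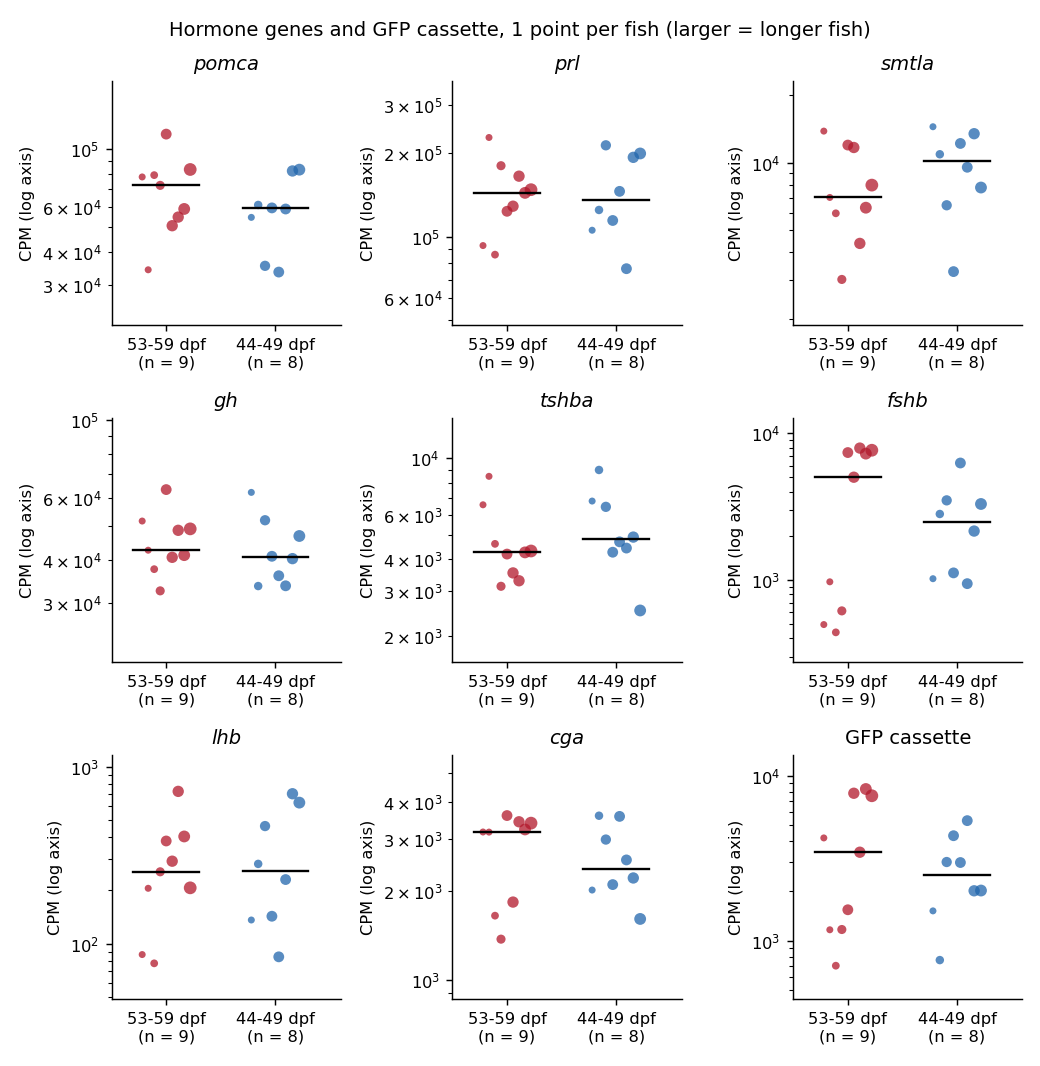
CPM (log axis) of the 8 hormone genes and the GFP cassette, with 1 point per fish of 53-59 dpf (red, n = 9) and 44-49 dpf (blue, n = 8), larger points for longer fish, and the median as a line. For fshb the fish of 53-59 dpf fall into a set at 439 to 971 CPM and a set at 5019 to 7930 CPM, with the shorter fish in the lower set.

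Within the fish of 53 to 59 dpf, fshb was divided along body length. The 5 fish of 14 to 16 mm had 5019, 7270, 7393, 7667 and 7930 CPM, and the 4 fish of 11 to 12.5 mm had 439, 496, 615 and 971 CPM. The ratio of the means of these sets was 11.2, and no value lay between them. The 4 fish of 58 to 59 dpf were all in the longer set, so that within the older group days and length are largely tied. At 53 dpf alone, however, the same division was present: medaka97, of 15 mm, had 7270 CPM and the other 4 fish, of 11 to 12.5 mm, had at most 971 CPM, with a single long fish at this age. This division into sets was noticed in the data and is given as a description, without a test. The 8 fish of 44 to 49 dpf showed no such gap. Their 2 fish under 13 mm, medaka32 and medaka10, had 1020 and 2817 CPM, and the 6 fish of 13.5 to 15 mm had 943, 1117, 2154, 3296, 3489 and 6274 CPM.

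When all genes were tested against body length given the age group, edgeR called 0 of 19409 (0%), with 489 (2.52%) at an unadjusted p under 0.05. With DESeq2 3 of 23815 genes had a negative slope that passed, and 709 (2.98%) an unadjusted p under 0.05. For fshb the slope was 0.69 on the log2 scale per mm (standard error 0.17, 95% interval 0.34 to 1.04, unadjusted p = 0.000658, adjusted p = 1 in edgeR). It therefore did not pass over all genes. This fit includes the fish of 53 to 59 dpf in which the division of fshb was noticed, so its p is no separate evidence of that division. The GFP cassette had a slope of 0.40 per mm (standard error 0.11, unadjusted p = 0.00131), lhb one of 0.40 (standard error 0.16, unadjusted p = 0.0266) and tshba one of -0.20 (standard error 0.07, unadjusted p = 0.0102), each with an adjusted p of 1 in edgeR. For the other 5 hormone genes the slopes were -0.06 to 0.09 per mm. Within the 9 fish of 53 to 59 dpf alone 0 of 15683 genes were called with length (0%), and no slope of fshb is given there, since its division along length was noticed in these fish. Within the 8 fish of 44 to 49 dpf it was 0.29 per mm (standard error 0.26, unadjusted p = 0.289 in edgeR), with 0 of 16025 genes called (0%). A difference of the slopes between the age groups was called for 0 of 19409 genes (0%), fshb included (adjusted p = 1.00 in edgeR). These fits within age groups and of the difference were chosen after the values of fshb were seen.

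Correlations with length over the single fish were computed on log2(CPM + 1) for the 8 hormone genes and the GFP cassette, 9 relations in all, over 17 fish. For fshb Pearson's r was 0.751 (permutation test, p = 0.00077) and Spearman's rho 0.715 (permutation test, p = 0.00173). The 3 fish of 11 mm are tied as the farthest from the median length. Without 2 of them, medaka101 and medaka98, r of fshb was 0.688 (permutation test, p = 0.0048). Within the fish of 44 to 49 dpf r was 0.296 (exact permutation test, p = 0.472, n = 8). Within the fish of 53 to 59 dpf no coefficient is given, since fshb falls into separate sets there. The p of fshb that pool both ages include these fish and are no separate evidence of that division. For the GFP cassette r was 0.643 and rho 0.631 (permutation tests, p = 0.0064 and 0.00837), with 0.765 without the same 2 fish. Within the groups r was 0.693 (exact permutation test, p = 0.0448, n = 9) at 53 to 59 dpf and 0.559 (exact permutation test, p = 0.156, n = 8) at 44 to 49 dpf. For tshba r was -0.654 and rho -0.653 (permutation tests, p = 0.00422 and 0.00524), with -0.528 without the same 2 fish. The coefficient of tshba was negative in both age groups. At 53 to 59 dpf r was -0.617 and rho -0.471 (exact permutation tests, p = 0.0759 and 0.203, n = 9). At 44 to 49 dpf r was -0.804 and rho -0.805 (exact permutation tests, p = 0.0144 and 0.0217, n = 8). For lhb r was 0.545 and rho 0.587 (permutation tests, p = 0.0252 and 0.0146), but without the same 2 fish r was 0.476 (permutation test, p = 0.0740) and no longer passed. Within the groups r of lhb was 0.658 (exact permutation test, p = 0.0575, n = 9) at 53 to 59 dpf and 0.401 (exact permutation test, p = 0.327, n = 8) at 44 to 49 dpf. For pomca, prl, smtla, gh and cga r was between -0.119 and 0.25 (permutation tests, p from 0.331 to 0.953). The p of these correlations are not adjusted for the 9 relations, and the adjusted p over all genes are those of the fits above.

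**Figure D3:**
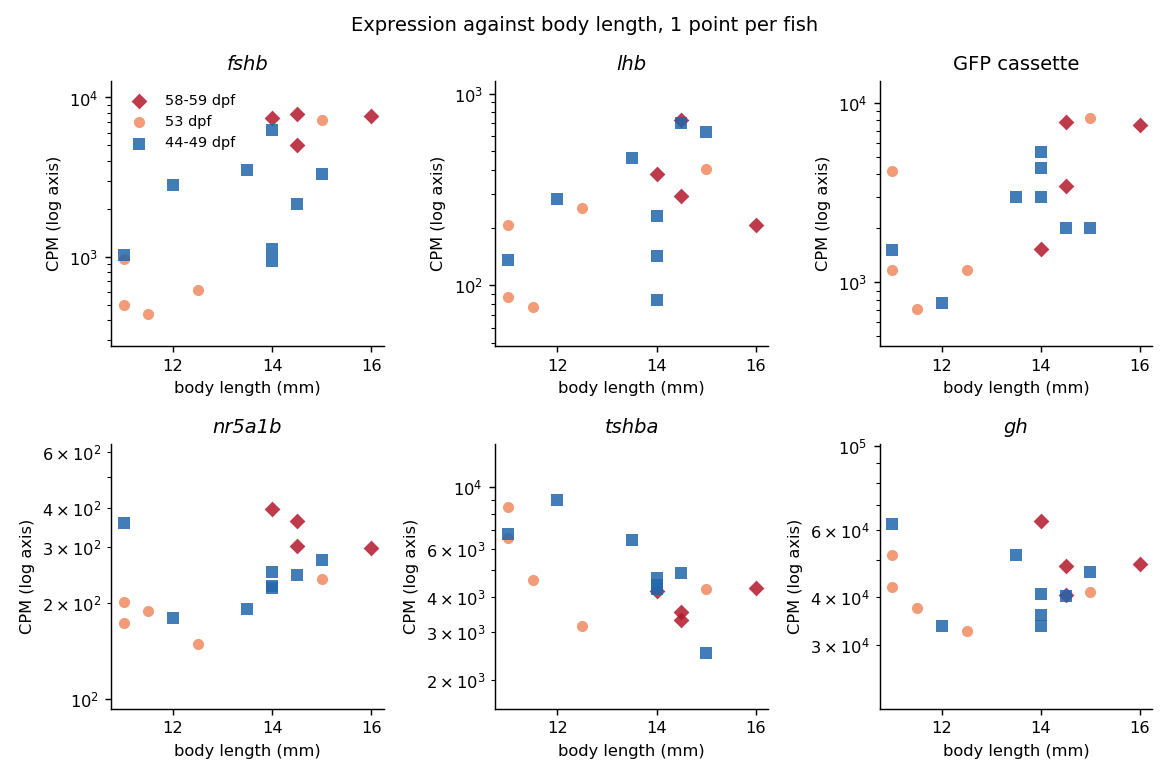
CPM (log axis) of fshb, lhb, the GFP cassette, nr5a1b, tshba and gh against body length in mm, with 1 point per fish of 58-59 dpf (red diamonds), 53 dpf (orange circles) and 44-49 dpf (blue squares). The fish of 53 dpf at 11 to 12.5 mm are at 439 to 971 CPM of fshb and the fish of 53 dpf at 15 mm is at 7270 CPM, while tshba has its highest values, 8499 and 9004 CPM, in fish of 11 and 12 mm.

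The comparison between ages was repeated in fish of matched length. Among the fish of 13.5 to 15 mm, those of 53 to 59 dpf had 5019, 7270, 7393 and 7930 CPM, against 943, 1117, 2154, 3296, 3489 and 6274 CPM in those of 44 to 49 dpf. The sets overlap by a single younger fish, medaka8. The ratio of the means of fshb was 2.40 (exact permutation test on log2(CPM + 1), p = 0.0286, n = 4 and 6, not adjusted for the 23 genes compared), and the log2 fold change in edgeR was 1.26 (standard error 0.47, unadjusted p = 0.0131, adjusted p = 1). Of the 23 genes only nr5a1b also had a p under 0.05, with a ratio of 1.38 (exact permutation test, p = 0.0238). Over all genes, edgeR gave an unadjusted p under 0.05 for 327 of 20082 (1.63%) in these fish. The 4 short older fish, which had low fshb, lie outside this range of length. The older fish within the range are all from the upper set of fshb noticed above. The p of fshb in this range are therefore no separate evidence of a difference with age. The same holds for nr5a1b, which was also higher in the long than in the short fish of 53 to 59 dpf. Of the older fish within the range only medaka97 was of 53 dpf. In the full set of fish with length in the model the fold change of fshb was 0.22 (standard error 0.47, 95% interval -0.76 to 1.2). With the 58 to 59 dpf fish alone as the older group the fold change of fshb was 1.52 (standard error 0.445, unadjusted p = 0.00287, adjusted p = 1.00 in edgeR). With the 53 dpf fish alone it was -0.46 (standard error 0.77, unadjusted p = 0.561 in edgeR). Both are against the fish of 44 to 49 dpf, and the difference between the 2 values was not tested. As 4 of the 5 fish of 53 dpf were short, these values again carry length and days together. The fish of 58 to 59 dpf were all in the upper set of fshb. Their p is therefore no separate evidence either.

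Of the genes that mark gonadotrope cells, nr5a1b (ENSORLG00000013196), which encodes a nuclear receptor involved in gonadotropin regulation, had 149, 238 and 397 CPM (lowest, median and highest) in the fish of 53 to 59 dpf, against 180, 236 and 357 CPM in the fish of 44 to 49 dpf (log2 fold change 0.13, standard error 0.22, 95% interval -0.32 to 0.59). Within the fish of 53 to 59 dpf it had 238 to 397 CPM in the 5 fish of 14 to 16 mm and 149 to 202 CPM in the 4 fish of 11 to 12.5 mm. The ratio of the means of these sets, which were noticed from fshb, was 1.80, against 11.2 for fshb. The step from 202 to 238 CPM was smaller than the spread within either set. In contrast, medaka32, a fish of 11 mm and 45 dpf, had 357 CPM, the highest level of the younger group. Over all 17 fish the slope of nr5a1b was 0.10 per mm (standard error 0.07, 95% interval -0.04 to 0.24, adjusted p = 1 in edgeR). Between the long and the short fish of 53 to 59 dpf, fshb and nr5a1b were the 2 of the 23 described genes without overlap in CPM, beside 218 of all 19409 genes (1.12%). After TMM scaling the sets of nr5a1b overlapped, with 220.5 CPM in the long fish medaka97 and 250.5 CPM in the short fish medaka98. Those of fshb stayed apart. The Gnrh receptor gene gnrhr2 (ENSORLG00000012659), associated with Lh cells, had 54.5 to 111 CPM in the older fish and 66.2 to 144 CPM in the younger (log2 fold change 0.01, standard error 0.22, 95% interval -0.44 to 0.45).

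Genes that mark the melanotropes, the α-Msh cells, had fold changes whose 95% intervals all included 0. The gene oacyl (ENSORLG00000005993) had 378 to 1434 CPM in the fish of 53 to 59 dpf and 726 to 1135 CPM in the fish of 44 to 49 dpf (log2 fold change 0.02, standard error 0.23). The gene of a Crh-binding protein, crhbp (ENSORLG00000002228), had 131 to 624 CPM in the older fish and 134 to 405 CPM in the younger (log2 fold change 0.18, standard error 0.30). The prohormone convertase gene pcsk2 (ENSORLG00000006472) had 988 to 2353 CPM in the older fish and 781 to 1704 CPM in the younger (log2 fold change 0.24, standard error 0.23). The transcription factor gene pax7 (ENSORLG00000004269) had 17.2 to 46.9 CPM in the older fish and 23.9 to 43.7 CPM in the younger, with a log2 fold change of -0.001 (standard error 0.15, 95% interval -0.31 to 0.31). The groups overlapped for each of these genes. The gene pou1f1 (ENSORLG00000015870), encoding a transcription factor of the somatotrope, lactotrope and thyrotrope lineages, had 123, 171 and 242 CPM in the older fish, against 112, 143 and 190 CPM in the younger. Its log2 fold change of 0.32 was the largest among the 7 cell type genes and did not pass (standard error 0.20, 95% interval -0.08 to 0.73, unadjusted p = 0.111, adjusted p = 0.996 in edgeR). Of these 7 genes 0 were called, with 6 positive and 1 negative fold changes and a median of 0.13.

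The remaining genes with adjusted gene models in this study overlapped in the same way. The 4 genes mdkb (ENSORLG00000014169), which encodes a midkine growth factor, eef1a (ENSORLG00000007614), an elongation factor, fth1a (ENSORLG00000005872), a ferritin heavy chain, and mcee (ENSORLG00000022009) had log2 fold changes of 0.01 to 0.12, and 0 were called. Of genes from cells other than the endocrine cells, the globin gene gb (ENSORLG00000003046) had 252 to 3852 CPM in the fish of 53 to 59 dpf and 1174 to 6939 CPM in the fish of 44 to 49 dpf. The globin gene hbbe2 (ENSORLG00000026120) had 582 to 9320 CPM in the older and 2741 to 20184 CPM in the younger fish. Together they took 0.0834 to 1.32% of the counts in the older and 0.392 to 2.71% in the younger fish. CD74 (ENSORLG00000004913), which marks antigen-presenting cells, had the smallest fold range of the 23, with 259 to 358 CPM in the older and 293 to 375 CPM in the younger fish (log2 fold change 0.01, standard error 0.17, 95% interval -0.34 to 0.35). Within the fish of 44 to 49 dpf gb and hbbe2 had slopes of -0.39 and -0.47 per mm (standard errors 0.13 and 0.14, adjusted p = 1 each in edgeR), with the highest level in medaka32, the shortest fish of that group, and within the fish of 53 to 59 dpf slopes of -0.06 each (standard error 0.18 each). In the short fish of 53 to 59 dpf, in which fshb was low, hbbe2 was at 3665 to 8654 CPM, against 582 to 9320 CPM in the long fish of that group. The median of hbbe2 was higher in the short fish, at 6545 CPM, than in the long fish, at 2686 CPM, and likewise that of gb, at 3035 CPM in the short and 1108 CPM in the long fish. The part of blood in the results was not tested.

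**Figure D4:**
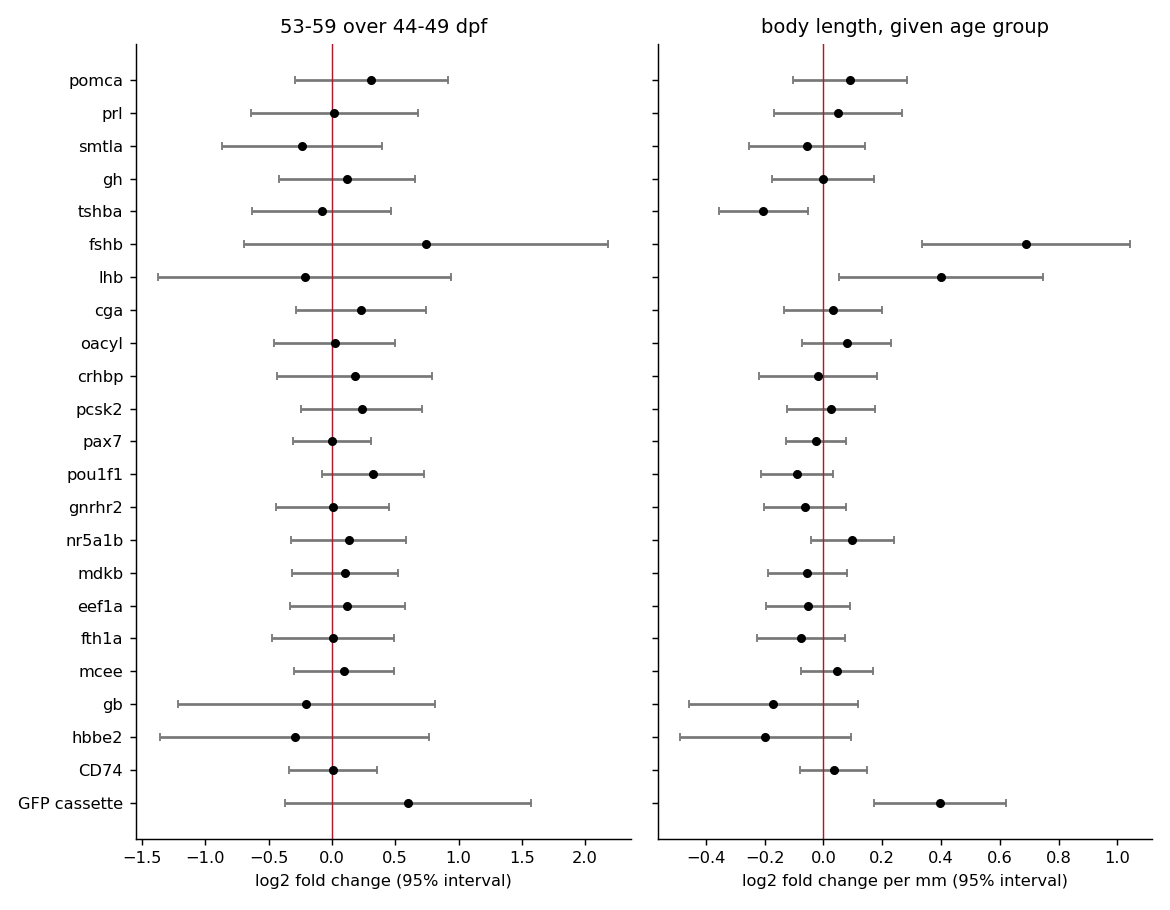
Log2 fold changes with 95% intervals from edgeR for the 23 described genes, for 53-59 over 44-49 dpf (left, 9 and 8 fish) and per mm of body length given the age group (right, 17 fish). All intervals for age include 0, and those for length lie away from 0 for fshb, lhb, tshba and the GFP cassette, of which none passed after adjustment over all genes.

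Among the genes known by identifier only, ENSORLG00000022777 had the smallest p between the ages. Its levels were 23.7, 38.2 and 46.2 CPM (lowest, median and highest) in the fish of 53 to 59 dpf, against 12.6, 18.0 and 22.9 CPM in the fish of 44 to 49 dpf. All 9 older fish were above all 8 younger fish, and this was the sole gene of the 19409 tested whose groups did not overlap in CPM (0.00515%). It was chosen for its small p in these same values, so that the absence of overlap is no separate evidence. The log2 fold change was 1.03 (standard error 0.19, 95% interval 0.64 to 1.41, adjusted p = 0.176 in edgeR and 0.0107 in DESeq2). For ENSORLG00000011107, the next gene with a positive fold change, the levels were 7.95 to 17.0 CPM in the older fish and 3.96 to 9.90 CPM in the younger (log2 fold change 0.82 with a standard error of 0.20, adjusted p = 0.996 in edgeR). The smallest p with a negative fold change was that of ENSORLG00000028894, at 1.39, 5.42 and 20.1 CPM in the older fish, against 5.72, 18.9 and 27.2 CPM in the younger (log2 fold change -1.60 with a standard error of 0.35, adjusted p = 0.996 in edgeR and 0.0213 in DESeq2). Without medaka29, which had the highest level among the older fish, its log2 fold change was -1.90 and it was one of the genes then called (adjusted p = 0.0323 in edgeR). ENSORLG00000020287 followed, with a log2 fold change of -1.38 (standard error 0.38) at 0.301 to 2.12 CPM in the older and 1.14 to 3.83 CPM in the younger fish.

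Along body length the smallest p with a positive slope belonged to ENSORLG00000017773 and ENSORLG00000017966, with 0.26 and 0.38 on the log2 scale per mm (standard errors 0.06 and 0.09, adjusted p = 0.846 each in edgeR). In the fish of 53 to 59 dpf ENSORLG00000017966 had 80.8 to 129 CPM in the 5 fish of 14 to 16 mm and 22.1 to 27.2 CPM in the 4 fish of 11 to 12.5 mm, and ENSORLG00000017773 had 159 to 284 CPM in the long and 86.8 to 119.7 CPM in the short fish. Both were chosen for their slope along length, and the absence of overlap in CPM is shared with the 1.12% of all genes given above. For ENSORLG00000017773 the sets overlap after division by the TMM factors, 1.313 in the long fish medaka29 and 0.8064 in the short fish medaka98. In the fish of 44 to 49 dpf ENSORLG00000017966 had 30.5 to 94.97 CPM, with the highest level in medaka8, the fish with the most fshb of that group. The smallest p with a negative slope belonged to ENSORLG00000025271 and ENSORLG00000005210, with -1.18 and -0.81 per mm (standard errors 0.24 and 0.17, adjusted p = 0.846 each in edgeR and 4.73e-05 and 0.00821 in DESeq2). Both were highest in medaka32, with 180 and 265 CPM, which held 37.5 and 37.3% of the summed CPM of the 17 fish.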

How the data were processed

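Per the labels, cDNA was amplified with the Smart-SEQ HT kit and made into libraries with the Nextera XT kit. The authors mapped the reads to a modified medaka genome and deposited raw counts for each gene and the reporter, before any scaling. STAR 2.7.6a, SAMtools 1.10 and HTSeq 0.11.2 are the tools in the submitters' processing notes. How reads over more than 1 gene, and their strand, were treated in these libraries is not given in the sources used here. Reads of overlapping or antisense genes may be shared. Reads include PCR copies, so that counts are not counts of molecules.

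Groups were taken from the labels of sex and age. All genes were tested with edgeR 4.0.16 in R 4.3.3, by TMM factors, filterByExpr and a robust quasi-likelihood F test, on the 17 libraries of the 2 groups. Adjusted p are Benjamini-Hochberg values over all genes, with a threshold of 0.05. DESeq2 1.42.0 was an alternative. Body length was tested in a joint model with the age group, and standard errors and 95% intervals were derived from the F statistic. Permutation tests and correlations used Python 3.11.15 with numpy 2.4.6 and scipy 1.17.1. Differences between groups were tested exactly, over all splits of the fish. Correlations were tested exactly in groups under 10 fish and otherwise with 100000 permutations. The fits were also run on simulated counts of independent fish, and no outcome of these runs is used in the results. The tests treat the 17 fish as independent, although fish of 1 egg collection date were raised together, and which fish shared a tank was not used here.

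The genes described are those with an identifier in the study's text, 3 genes (gb, hbbe2 and CD74) with identifiers from an earlier description of the series, the GFP cassette, and per direction the 2 identifiers with the smallest p and at least 1 CPM on average. The reference table paired 0 symbols with an Ensembl identifier, so that further gene lists were left untested. Members and lists were chosen with earlier results of these data known.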

Additional observations from a re-analysis of the deposited data

Results flagged for a closer look

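Of 60 sets of values, each 1 measure in 1 age group, 7 had an extreme fish far from its nearest neighbour relative to the range of the set. For normally distributed values chance gives this in about 1 in 20. Levels and shares were taken without logs and can be skewed, so that this rate need not hold for them, and log values were not tried. In the fish of 53 to 59 dpf, lhb was at 726 CPM in medaka28 and 77.3 to 403 CPM in the other 8, crhbp was at 624 CPM in medaka76 and 131 to 338 CPM in the others, and mdkb was at 1371 CPM in medaka101 and 662 to 1012 CPM in the others. In the fish of 44 to 49 dpf, medaka94 had a total of 2424546 counts and the other 7 had 5141337 to 7318447. In the same group medaka32 had 2.71% of its counts in globin genes (0.392 to 1.19% in the others), 6939 CPM of gb (1174 to 3489 CPM in the others) and 20184 CPM of hbbe2 (2741 to 8432 CPM in the others). The 3 values of medaka32 come from the same pair of genes.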

How the results depend on the processing

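Counts of called genes stayed at 0 under most alternatives. Between the age groups DESeq2 called 5, the fish of 13.5 to 15 mm gave 1 (ENSORLG00000027315, higher in the older fish, with 45.7% of its CPM over the 17 fish in a single fish), and leaving out 1 fish gave 0 to 2. With length in the model DESeq2 called 3 for age and 3 for length, and leaving out 1 fish gave 0 for both; the cause of these differences was not tested. RLE factors, TMM without the hormone genes, library totals alone, other filters on low counts, RNA integrity number (14 fish) or detected genes as covariates, all 68 females in a single fit, and age in days each gave 0. None of the 23 described genes was called for age, for age given length or for length under any alternative. The sign of the fold change for age changed in 95 of 713 values, in 16 of the 23 genes, so that most of these directions are not settled, and fshb ranged from -0.46 to 1.73. The slope of fshb with length stayed positive under the alternatives tried. The correlation of lhb with length no longer passed without medaka101 and medaka98, 2 of the 3 fish tied as farthest from the median length (r = 0.476). Of the 3, medaka32 was kept, and other pairs were not tried. The other correlations and the whole-library measures kept their side of the threshold. No paired analysis was possible because the labels number the fish singly and pair none. The shallowest library limits the detected genes to 2424546 counts per fish.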

Other observations

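With the fish of 53 dpf alone as the older group, 1750 of 19830 genes (8.83%) had an unadjusted p under 0.05 against the fish of 44 to 49 dpf, and with the fish of 58 to 59 dpf 490 of 20349 (2.41%). Adjusted, 0 genes passed in both. The set of 53 dpf held 5 fish, and the other set held 2 of 58 dpf and 2 of 59 dpf, among them medaka29. Without medaka29 the comparison of all fish had 1620 of 19150 genes (8.46%) at an unadjusted p under 0.05 in edgeR. The gene pou1f1 had a log2 fold change of 0.50 in the fish of 53 dpf (standard error 0.23, adjusted p = 0.544 in edgeR) and 0.12 in the fish of 58 to 59 dpf (standard error 0.23, adjusted p = 1.00 in edgeR). The GFP cassette had one of 0.22 at 53 dpf (standard error 0.53) and 0.99 at 58 to 59 dpf (standard error 0.39, adjusted p = 1.00 in edgeR), and nr5a1b one of -0.30 (standard error 0.23) and 0.56 (standard error 0.24, adjusted p = 1.00 in edgeR). Differences between the 2 sets of older fish were not tested. The fish of 58 to 59 dpf were of 14 to 16 mm. Those of 53 dpf, except medaka97, were of 11 to 12.5 mm, so that days and length are largely tied here too.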
